A study of Homo sapiens with 3 samples.

Results

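The COLCA locus on chromosome 11 and the POU2F octamer factors were examined in H660 (NCI-H660), a human neuroendocrine prostate cancer cell line, as 6 of the 58735 genes in the deposited expression table. The members were the long noncoding RNA gene COLCA1, the coactivator genes COLCA2 and POU2AF1, and the factor genes POU2F1, POU2F2 and POU2F3, taken by their symbols. They were chosen by name from earlier results of these same values, in which COLCA1 had been seen to fall, so their levels and all changes between the libraries are given as a description. Parental H660 cells had received DMSO, the vehicle, or JG231 at 2.5 µM or 5 µM for 24 h, and RNA was sequenced from 1 library per condition. JG231 is an allosteric inhibitor of the chaperone HSP70, and the study asked how it alters gene expression in neuroendocrine prostate cancer cells. With 1 library per condition there was no replicate error and no p-value for any gene, and the DMSO library is shared by both comparisons. A single cultured line stands for the disease here. In bulk RNA, fewer cells that make a transcript and less of it per cell cannot be told apart.

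POU2F1 (OCT1), POU2F2 (OCT2) and POU2F3 (OCT11) are transcription factors that bind the octamer motif ATTTGCAT through a POU domain made of a POU-specific part and a homeodomain. POU2F1 is made in nearly all cells, POU2F2 mainly in B lymphocytes and neurons, and POU2F3 in tuft cells, which are chemosensory epithelial cells, and in the tuft-like form of small cell lung cancer. Coactivators sit on the factor while it is bound to DNA. POU2AF1 (OCA-B) is the coactivator of B cells, and COLCA2 (also named POU2AF3 or OCA-T2) and C11orf53 (POU2AF2 or OCA-T1) are coactivators of POU2F3 in tuft cells. The genes for these 3 coactivators are neighbours on chromosome 11, and COLCA1 lies among them, antisense to COLCA2.

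All annotation is from GENCODE release 44 on GRCh38. COLCA1 (ENSG00000196167, minus strand) spans chr11:111290787-111305498 and COLCA2 (ENSG00000214290, plus strand) spans chr11:111298546-111308735, so that the 2 genes overlap head to head. POU2AF1 (ENSG00000110777, minus strand) lies at chr11:111352255-111455630. Of the factor genes, POU2F3 (ENSG00000137709, plus strand) lies on the same chromosome at chr11:120236640-120319945, POU2F1 (ENSG00000143190, plus strand) at chr1:167220876-167427345 and POU2F2 (ENSG00000028277, minus strand) at chr19:42086110-42196585.

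RefSeq start-site windows on GRCh38.p14, from 250 bases before to 50 bases after an annotated start, were held for 4 of the members and numbered 12 in all. POU2AF1 and POU2F3 had no window. Of these, 4 are printed 5′ to 3′ on the gene's own strand, because they show how the COLCA1 and COLCA2 starts lie against each other and where the octamer occurred. The first is the upstream COLCA1 window at chr11:111304999-111305298 (minus strand), with its first 50 transcribed bases in capitals. The second is the COLCA2 window at the annotated start of the gene, chr11:111298296-111298595 (plus strand), with the letters TATAAA in capitals. The third is a downstream COLCA1 window at chr11:111299160-111299459 (minus strand), in which the capitals mark the 199 bases it shares, on the opposite strand, with a COLCA2 window. The last is the window of an internal POU2F1 start at chr1:167328820-167329119 (plus strand), with the octamer in capitals.
COLCA1 upstream window: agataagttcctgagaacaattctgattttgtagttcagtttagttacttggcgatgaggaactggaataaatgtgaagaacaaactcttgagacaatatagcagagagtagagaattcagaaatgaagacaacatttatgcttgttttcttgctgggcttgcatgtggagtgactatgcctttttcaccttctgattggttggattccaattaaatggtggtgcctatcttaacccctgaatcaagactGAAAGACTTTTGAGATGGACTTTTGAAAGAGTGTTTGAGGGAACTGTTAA
COLCA2 window: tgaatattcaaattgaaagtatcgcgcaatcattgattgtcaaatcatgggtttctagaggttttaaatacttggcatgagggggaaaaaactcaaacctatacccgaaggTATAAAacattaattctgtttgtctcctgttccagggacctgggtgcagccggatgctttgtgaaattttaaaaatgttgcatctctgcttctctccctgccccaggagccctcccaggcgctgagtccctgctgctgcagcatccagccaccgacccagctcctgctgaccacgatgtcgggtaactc
COLCA1 downstream window: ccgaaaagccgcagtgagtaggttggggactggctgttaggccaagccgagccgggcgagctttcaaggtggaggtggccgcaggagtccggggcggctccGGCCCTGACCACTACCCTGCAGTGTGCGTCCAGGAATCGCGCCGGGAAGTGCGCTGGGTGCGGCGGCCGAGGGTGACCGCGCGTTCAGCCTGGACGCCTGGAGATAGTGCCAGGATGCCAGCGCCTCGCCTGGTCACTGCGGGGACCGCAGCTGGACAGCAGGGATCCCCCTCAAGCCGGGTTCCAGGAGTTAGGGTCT
POU2F1 internal window: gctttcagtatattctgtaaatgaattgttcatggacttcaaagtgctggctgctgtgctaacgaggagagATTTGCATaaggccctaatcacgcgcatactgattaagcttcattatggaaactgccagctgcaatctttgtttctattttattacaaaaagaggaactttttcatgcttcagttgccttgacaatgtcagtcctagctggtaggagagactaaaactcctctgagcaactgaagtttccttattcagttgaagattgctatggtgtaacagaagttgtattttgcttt

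The octamer ATTTGCAT, searched on both strands as ATTTGCAT or ATGCAAAT, was found in 1 of the 12 member windows, which was this internal POU2F1 window, at its base 72. Of 35116 windows of the same length over all genes, 1.77% held it. TATAAA, on either strand, was found in 2 member windows, the COLCA2 window printed above and a further COLCA1 window at chr11:111300183-111300482, against 11.5% of all windows. The E-box CACGTG, a palindrome that MYC-family proteins bind, was found in 0 of the 12 member windows and in 7.26% of all windows. These matches are letters in a window, and no binding was measured. In base composition the printed starts differed. The upstream COLCA1 window had a GC content of 37.7%, and the downstream one, which shares bases with a COLCA2 window, had 68.3%.

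Expression was read as FPKM, fragments divided by transcript length and by sequencing depth, a scale per length on which levels of different genes can be set side by side. The value of 1 sequenced fragment could be recovered from the steps of the FPKM values, which gave about 16.1 M fragments in the DMSO library, 20.4 M at 2.5 µM and 24 M at 5 µM. Intervals are exact 95% intervals for these fragments (Poisson for a level, binomial for a ratio). They cover counting error only, and copies made by PCR are not independent molecules. Markers of the labelled line were present. Of 13 neuroendocrine genes, 12 were over 1 FPKM in at least 1 library, among them UCHL1 at 243.1 FPKM in DMSO, 215.4 at 2.5 µM and 234.0 at 5 µM, and of 7 epithelial genes 5 were, with EPCAM at 302.1, 262.1 and 260.8 FPKM. Of these 5, 0 were lower at either dose, and 4 were higher at 2.5 µM and 3 at 5 µM, KRT8 among them at 224.1, 414.2 and 505.0 FPKM. By the calls defined below, 36.4% of all tested genes were higher and 43.4% lower at 2.5 µM, and 36.5% and 45.1% at 5 µM. The label also calls the cells prostatic adenocarcinoma, yet of 10 luminal prostate genes TRPM8 and SLC45A3 alone passed 1 FPKM, and KLK3 did not.

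In DMSO-treated cells COLCA1 was by far the most abundant member, POU2AF1, POU2F1 and COLCA2 were near 5 FPKM, and POU2F2 and POU2F3 were below 1 FPKM. COLCA1 stood at 111.8 FPKM (110.1 to 113.5), the 220th highest of all genes and the third of 4153 long noncoding RNA genes listed above 0. POU2AF1 was at 5.46 FPKM (5.04 to 5.91), POU2F1 at 5.17 (4.90 to 5.46) and COLCA2 at 4.86 (4.15 to 5.68). The intervals of these 3 overlapped, so their order was not resolved even by counting error. POU2F2 at 0.507 FPKM (0.398 to 0.637) and POU2F3 at 0.337 FPKM (0.234 to 0.463) overlapped each other as well. At 5 µM the order became COLCA1 at 5.79 FPKM, POU2F1 at 2.17, COLCA2 at 1.27, POU2AF1 at 0.880, POU2F3 at 0.138 and POU2F2 at 0.0229. There the neighbouring intervals of COLCA2 (0.974 to 1.62) and POU2AF1 (0.744 to 1.03) overlapped, and those of COLCA1 (5.47 to 6.11) and POU2F1 (2.03 to 2.33) did not.

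**Figure D1:**
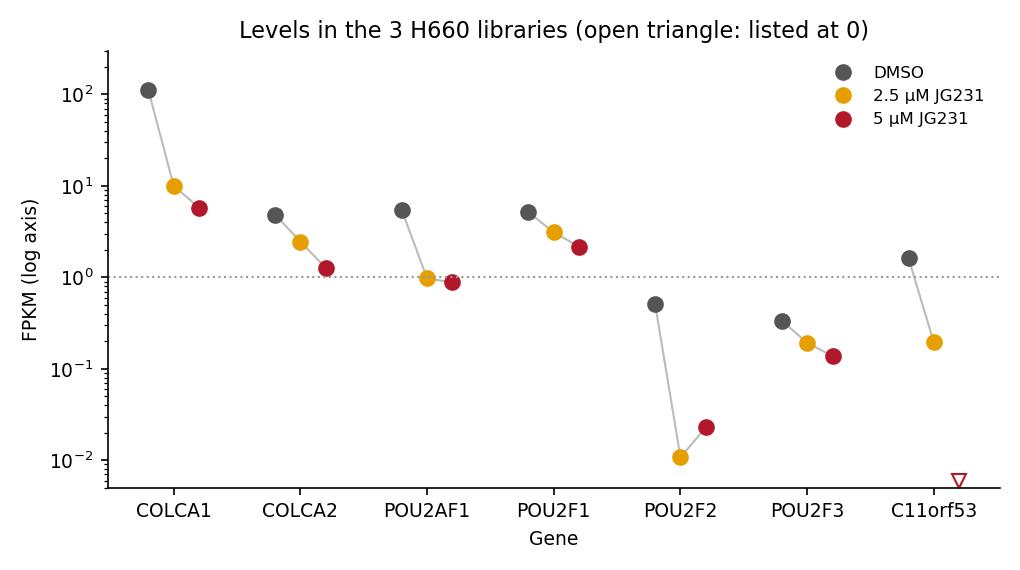
Levels of each member and of the neighbouring coactivator gene C11orf53 in the 3 H660 libraries, 1 point per library, in FPKM on a log axis, with a dotted line at 1 FPKM and an open triangle for a value of 0. COLCA1 went from 111.8 FPKM in DMSO to 5.79 at 5 µM JG231, and POU2F2 and POU2F3 lay below 1 FPKM in all 3 libraries.

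All 6 members were lower in both JG231 libraries than in DMSO. A gene was called changed at an absolute log2 change over 0.25 after adding 0.1 to each FPKM, if it was over 1 FPKM in at least 1 of the libraries compared, and genes that went to or from 0 were kept. The thresholds follow the methods section, which does not name the library in which expression must pass, so that part of the filter is a reading of it. At each dose 4 members could be tested (COLCA1, COLCA2, POU2AF1 and POU2F1), and all 4 were lower. POU2AF1 passed the filter through the DMSO library alone, where it was highest, whereas the other 3 were over 1 FPKM in every library. Over all genes, 45.1% of 15765 tested were lower and 36.5% were higher at 5 µM, and 43.4% of 15746 were lower and 36.4% were higher at 2.5 µM. Of the changed genes, 44.7% were higher at 5 µM, a share that was 64.1% among genes with a mean of at least 5 FPKM and 27.6% after rescaling without mitochondrial and small RNA genes. At 2.5 µM these shares were 45.6%, 64.8% and 30.4%. The median log2 change of all tested genes was -0.11 at 5 µM and -0.079 at 2.5 µM. Lower by more than 1 on the log2 scale were 4 members at 5 µM, beside 24.3% of all tested genes, and 2 members at 2.5 µM, beside 21.7%. POU2F2 and POU2F3 were not among the tested genes. Without the filter on level, 12191 of 22838 genes were lower at 5 µM and 11680 of 23560 at 2.5 µM. A fall was thus common among genes that include the low ones. These shares are printed for scale, since the members were chosen with the contrast known.

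COLCA1, whose RNA has no settled function and whose name comes from an association of the locus with colorectal cancer, had the deepest fall of the 4 tested members. It was at 111.8 FPKM in DMSO, 10 at 2.5 µM and 5.79 at 5 µM, from about 16505, 1872 and 1278 fragments. Its FPKM in DMSO was thus 11.2-fold that at 2.5 µM and 19.3-fold that at 5 µM. The log2 change was -3.47 at 2.5 µM (interval of the FPKM ratio -3.55 to -3.41) and -4.25 at 5 µM (-4.35 to -4.19). COLCA1 was well covered in every library, so that counting error was small beside the change. In its share of the library it went from 0.103% of all fragments to 0.00919% and 0.00532%, and from the third to the 89th and the 199th place among long noncoding RNA genes. Low genes reach large ratios easily, and in the ranking of all tested genes COLCA1 was the 771st lowest at 5 µM and the 1135th at 2.5 µM. Among the 7583 genes with a mean of at least 5 FPKM over the libraries, COLCA1 had the 26th lowest change at both doses.

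The changes of all tested long noncoding RNA genes, most of them low in level, were read beside COLCA1. Of 2056 tested at 5 µM, 1295 were lower and 619 higher, with a median log2 change of -1.04, and of 2023 tested at 2.5 µM, 1320 were lower and 547 higher, with a median of -1.01. Over all tested genes 45.1% were lower at 5 µM and 43.4% at 2.5 µM, and the long noncoding RNA genes listed above 0 numbered 4153 in DMSO, 3056 at 2.5 µM and 2172 at 5 µM, so that part of them could pass the filter through DMSO alone. COLCA1 lay well below both medians, and its change was the 311th lowest of the 2056 at 5 µM and the 456th of the 2023 at 2.5 µM. It had the third lowest change at each dose among the 211 long noncoding RNA genes with a mean of at least 5 FPKM. In absolute terms its level dropped by 106.0 FPKM at 5 µM, which was the 30th largest of 13939 drops, and by 101.8 FPKM at 2.5 µM, the 39th of 13727.

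COLCA2 encodes a coactivator of POU2F3 and is transcribed from the opposite strand of the same stretch. It was at 4.86 FPKM in DMSO, 2.46 at 2.5 µM and 1.27 at 5 µM, from about 162, 103 and 63 fragments. The level thus went down at each step, by a log2 change of -0.96 at 2.5 µM (-1.37 to -0.63) and -1.85 at 5 µM (-2.39 to -1.51). These are DMSO levels 1.98-fold and 3.82-fold those in the treated libraries. The intervals did not reach those of COLCA1, whose fall was larger at both doses. The ratio of COLCA1 to COLCA2 FPKM was 23.0 in DMSO, 4.07 at 2.5 µM and 4.55 at 5 µM.

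The exons of COLCA1 and COLCA2 share 445 bp on opposite strands, which is 4.84% of the COLCA1 exon length of 9186 bp and 21.5% of the COLCA2 exon length of 2068 bp. Libraries were strand-specific by their labels, but whether the counting used the strand is not stated in the sources used here. Without it, reads in the shared stretch from the far more abundant COLCA1 could be assigned to COLCA2, so the COLCA2 values are uncertain, and the part of this overlap in its fall was not tested. POU2AF1 shares 236 bp (3.37% of its exons) with AP002008.2, which reached at most 0.140 FPKM, and POU2F1 shares 784 bp (4.89%) with CD247, which reached at most 0.0852 FPKM. For these 2 members the partner was therefore at or near 0.

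POU2AF1, the B-cell coactivator that joins POU2F1 or POU2F2 on immunoglobulin promoters, fell nearly all of the way at the lower dose. It was at 5.46 FPKM in DMSO, 0.973 at 2.5 µM and 0.880 at 5 µM, from about 614, 139 and 148 fragments. DMSO was 5.61-fold and 6.20-fold above the treated libraries, with log2 changes of -2.37 (-2.76 to -2.22) and -2.50 (-2.90 to -2.37). The 2 treated libraries were alike within counting error, and both lay far below DMSO. In DMSO COLCA2 and POU2AF1 were close, at a ratio of 0.891, while at 2.5 µM the ratio was 2.52 and at 5 µM 1.45.

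C11orf53, the remaining coactivator of the locus, is not among the 6 members and was read as their neighbour at chr11:111245725-111286401. Its FPKM was 1.62 in DMSO, 0.194 at 2.5 µM and 0 at 5 µM, on about 35, 5 and 0 fragments. DMSO was 8.36-fold above 2.5 µM. At 5 µM, where C11orf53 was listed at 0, the interval of the log2 ratio to DMSO had -3.75 as its upper end. The summed FPKM of the 3 coactivator genes was 11.9 in DMSO, 3.62 at 2.5 µM and 2.15 at 5 µM.

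POU2F1, the widely expressed factor, was the factor gene with the highest level and fell least among the tested members. Its FPKM was 5.17 in DMSO, 3.10 at 2.5 µM and 2.17 at 5 µM, from about 1333, 1012 and 838 fragments. The log2 change was -0.72 at 2.5 µM (-0.86 to -0.62) and -1.21 at 5 µM (-1.38 to -1.12), or DMSO levels 1.67-fold and 2.38-fold higher. It was graded with dose like COLCA2. In the ranking of all tested genes it was only the 4413th lowest of 15746 at 2.5 µM and the 3296th of 15765 at 5 µM, so a change of this size was common in these libraries.

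POU2F2, the B-cell and neuronal factor, was low throughout and nearly absent after treatment. It was at 0.507 FPKM in DMSO, 0.0108 at 2.5 µM and 0.0229 at 5 µM, on about 74, 2 and 5 fragments. The FPKM at 2.5 µM was 0.0213 of that in DMSO, with a log2 interval from -8.62 to -3.65, and at 5 µM it was 0.0452 of it, with an interval from -6.13 to -3.18. At 2.5 µM this interval lay wholly below that of COLCA1, and at 5 µM the intervals of both genes overlapped. POU2F2 never reached 1 FPKM and was outside the tested genes. With 0.1 added to each FPKM its log2 change was -2.45 and -2.30, values set largely by the added 0.1.

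POU2F3, the tuft-cell factor on which COLCA2 and C11orf53 act, was the lowest member in DMSO. It stood at 0.337 FPKM in DMSO, 0.192 at 2.5 µM and 0.138 at 5 µM, on about 36, 26 and 22 fragments. The log2 change was -0.58 at 2.5 µM (-1.60 to -0.043) and -0.88 at 5 µM (-2.13 to -0.49). The intervals lay below 0 but were wide, and POU2F3 too was outside the tested genes. The ratio of POU2F1 to POU2F3 FPKM was 15.4 in DMSO, 16.1 at 2.5 µM and 15.8 at 5 µM, on so few POU2F3 fragments that a change in it could be missed at this depth. The ratio of POU2F1 to POU2F2 was 10.2 in DMSO and 286.4 and 94.9 in the treated libraries, on the few POU2F2 fragments given above.

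**Figure D2:**
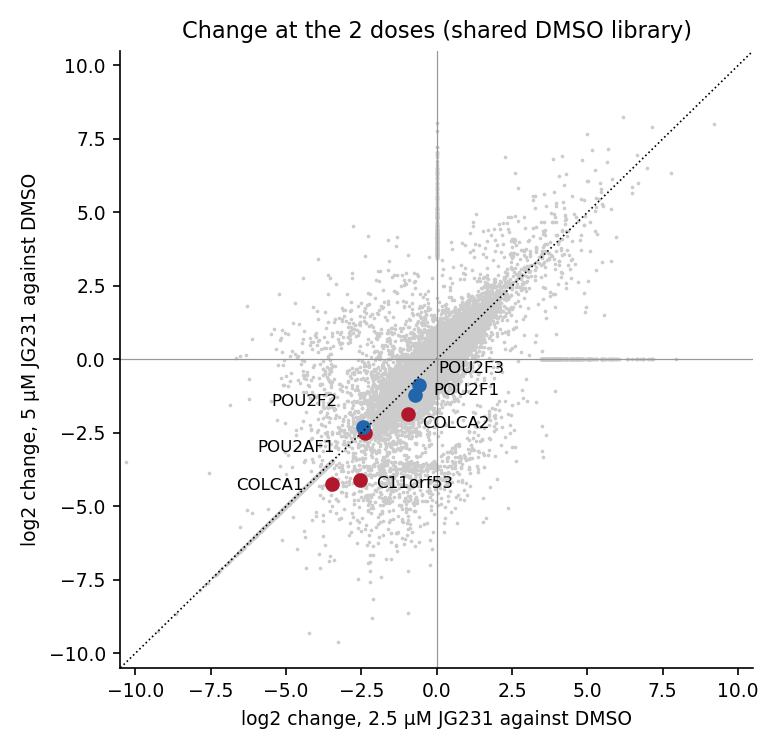
log2 change against the shared DMSO library at 2.5 µM (horizontal) and 5 µM JG231 (vertical), with 0.1 added to each FPKM, for genes over 1 FPKM in any library (grey) and for the members and the neighbour C11orf53 (red for COLCA1, COLCA2, POU2AF1 and C11orf53, blue for the POU2F genes). The dotted diagonal marks equal change, and COLCA1, COLCA2 and POU2F1 lie below it while POU2AF1 and POU2F2 lie close to it.

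The doses were then compared directly, as a description of values that were known when the members were chosen. Between 5 µM and 2.5 µM 3 members could be tested, COLCA1, COLCA2 and POU2F1, and all 3 were lower at the higher dose, beside 30.1% of 14197 tested genes, a share printed for scale from which nothing is read. COLCA1 changed by -0.78 (-0.89 to -0.69), COLCA2 by -0.90 (-1.42 to -0.48) and POU2F1 by -0.49 (-0.65 to -0.38) on the log2 scale. The median of all genes tested in this comparison was -0.016. POU2AF1 changed by -0.13 with an interval from -0.49 to 0.20, POU2F3 by -0.30 (-1.37 to 0.40) and POU2F2 by 0.15 (-1.53 to 4.48). For these 3, a difference between the doses was not detectable at this depth, and all had less than 1 FPKM in both treated libraries.

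The neighbourhood of COLCA1 was read for the protein-coding genes within 500 kb on either side. There were 10 such genes, of which 6 could be tested. C11orf53, COLCA2, POU2AF1, SIK2, PPP2R1B and ALG9 were all lower at 5 µM, and at 2.5 µM all of them but ALG9 were lower. Beside this, 45.1% of all tested genes were lower at 5 µM and 43.4% at 2.5 µM. C11orf53 and POU2AF1 were over 1 FPKM in DMSO alone, so they could be called only as lower, and the counts are no measure of a fall of the whole neighbourhood. SIK2, a salt-inducible kinase, was at 7.40, 4.69 and 3.27 FPKM in DMSO, 2.5 µM and 5 µM, a log2 change of -0.65 and -1.16. PPP2R1B, a scaffold subunit of protein phosphatase 2A, was at 6.81, 4.82 and 4.51 FPKM (-0.49 and -0.58). ALG9, a mannosyltransferase of N-glycan assembly, was at 1.5, 1.70 and 1.18 FPKM (0.17 and -0.32). The falls of these 3 were smaller than those of COLCA1, C11orf53 and POU2AF1. BTG4, C11orf88 and AP001781.2 were listed at 0 in all 3 libraries, and LAYN at 0 in DMSO and 2.5 µM and 0.317 FPKM at 5 µM.

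In a wider window of 1000 kb on either side, 31 protein-coding genes were listed. Leaving out the 3 coactivator genes, 5 of 13 tested there were lower and 6 higher at 5 µM, with a median of -0.040. At 2.5 µM 4 of 15 were lower and 7 higher, with a median of 0.17. Of the higher genes, FDXACB1 and TEX12 were over 1 FPKM at 2.5 µM alone and could be called only as higher. Among all tested genes, 45.1% were lower and 36.5% higher at 5 µM, and 43.4% and 36.4% at 2.5 µM. Lower and higher genes both occurred in the wider window, on too few genes to be read against these shares. RDX, which encodes the membrane linker radixin and lies on the other side of the coactivator genes, was lower at 67.5, 39.6 and 33.2 FPKM, whereas PTS, an enzyme of tetrahydrobiopterin synthesis, was higher at 8.06, 15.7 and 17.1 FPKM. RDX, PTS, FDXACB1 and TEX12, like FDX1 and ARHGAP20 in the plot of the region, were named after their values were seen.

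**Figure D3:**
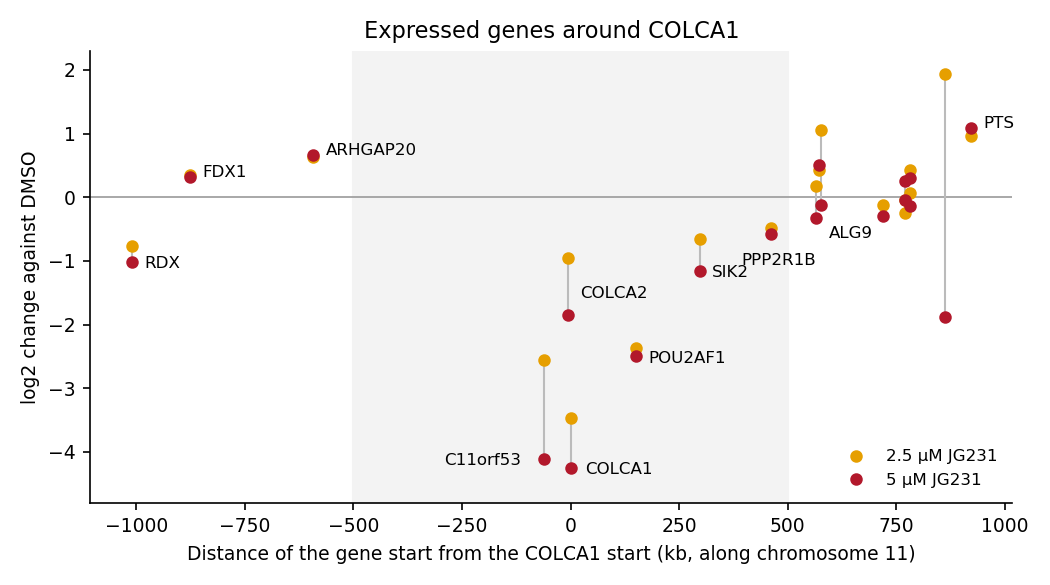
log2 change against DMSO at 2.5 µM (orange) and 5 µM JG231 (dark red) of COLCA1 and of the protein-coding genes over 1 FPKM around it, by distance of the gene start from the COLCA1 start in kb along chromosome 11. Shading marks 500 kb on either side, in which all points at 5 µM lie below 0, from -0.58 for PPP2R1B to -4.25 for COLCA1, and ALG9, whose start lies beyond the shading, reaches into that range.

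Exon length moved with the change in these libraries, and 5 of the 6 members have long exons. When 11200 protein-coding genes with a mean of at least 1 FPKM were cut into 5 groups of about equal size by length, the median log2 change at 5 µM went from 0.46 in the shortest group (exon length 207 to 2973 bp) to 0.038 in the middle group and -0.33 in the longest (8913 to 70573 bp). COLCA1 at 9186 bp, POU2F1 at 16031 bp and POU2F2 at 9072 bp have the exon length of the longest group, POU2AF1 at 6996 bp and POU2F3 at 6700 bp that of the next longest, and COLCA2 at 2068 bp that of the shortest. Each member lay below the median of the group with its exon length. Among 3055 tested genes with at least 8 kb of exon, COLCA1 had the 2nd lowest change at 5 µM and POU2F1 the 437th. With the length trend removed, the log2 change of POU2F1, the longest member, went from -1.21 to -0.84 at 5 µM and from -0.72 to -0.52 at 2.5 µM, and that of COLCA2, the shortest, from -1.85 to -2.31 and from -0.96 to -1.29. The 4 tested members were called lower with and without the trend, POU2AF1 through its DMSO level alone.

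**Figure D4:**
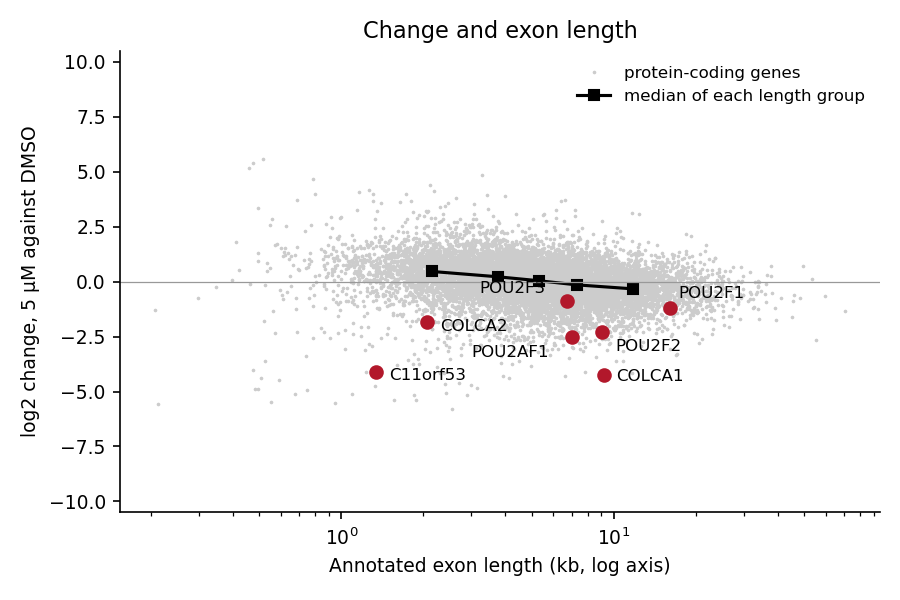
log2 change at 5 µM JG231 against total exon length in kb (log axis) for protein-coding genes with a mean of at least 1 FPKM (grey), with the median of each of the 5 length groups at its median length (black squares) and the members with C11orf53 (red). The medians go from 0.46 to -0.33, and COLCA1 at -4.25 and POU2F1 at -1.21 lie below the median of the longest group.

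The POU family was mixed in direction. Of its 16 genes, the POU2F genes included, 6 passed 1 FPKM in at least 1 library. Of these 6, POU2F1 among them, 4 were lower and 1 higher at 5 µM (median -0.68), and 2 were lower and 2 higher at 2.5 µM (median 0.020). The shares over all tested genes were 45.1% lower and 36.5% higher at 5 µM, and 43.4% and 36.4% at 2.5 µM. In the 5 µM comparison POU6F1 passed the filter through DMSO alone and could be called only as lower. POU3F2 (BRN2), a neural factor known for its part in neuroendocrine prostate cancer, was the highest at 14.2 FPKM in DMSO, 14.2 at 2.5 µM and 10.3 at 5 µM, a log2 change of 0.001 and -0.46. It was thus level at the lower dose, where POU2F1 was already lower. POU4F1, a factor of sensory neurons, was at 2.90, 2.98 and 1.5 FPKM (0.039 and -0.91), and POU6F1 at 1.96, 1.49 and 0.797 FPKM (-0.37 and -1.20). POU4F2 went the other way, at 1.70, 2.48 and 2.67 FPKM (0.52 and 0.62).

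Known partners of POU2F1 in transcription of small nuclear RNA and histone H2B genes were mixed. Of 11 partner genes, 10 passed 1 FPKM. Of these 10, 3 were lower and 4 higher at 5 µM (median -0.041), and 5 were lower and 3 higher at 2.5 µM (median -0.23). For scale, 45.1% of all tested genes were lower and 36.5% higher at 5 µM, and 43.4% and 36.4% at 2.5 µM. NME2 passed 1 FPKM in the JG231 libraries alone and could be called only as higher. Within the SNAP complex, which binds small nuclear RNA promoters with POU2F1, SNAPC2 was higher at 10.1, 14.9 and 18.2 FPKM (0.55 and 0.84) and SNAPC4 was lower at 10.2, 7.44 and 7.48 FPKM (-0.45 and -0.44). NPAT, which drives histone genes in S phase, was lower at 6.60, 4.51 and 3.87 FPKM (-0.54 and -0.76). Of 18 H2B histone genes, 8 were tested at each dose, with HIST1H2BC tested at 2.5 µM alone and HIST3H2BB at 5 µM alone. At 5 µM 5 were lower and 2 higher (median -0.27), and at 2.5 µM 2 were lower and 3 higher (median 0.003). Many of these calls were fixed in direction by the filter. At 5 µM HIST1H2BF, HIST1H2BG and HIST1H2BL passed it through DMSO alone, and HIST3H2BB through the 5 µM library alone. At 2.5 µM HIST1H2BG, HIST1H2BL and HIST2H2BE passed it through DMSO alone, and HIST1H2BC through the 2.5 µM library alone. HIST1H2BK, the most abundant, was higher at 23.7, 32.1 and 45.2 FPKM (0.44 and 0.93). HIST1H2BF, HIST1H2BG and HIST1H2BL, among the tested H2B genes, had 15 fragments or fewer in every library.

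Tuft-cell and B-cell genes were read because POU2F3 and POU2AF1 are known from those cells. Of 28 tuft-cell genes, POU2F3 included, 8 passed 1 FPKM and 9 were listed at 0 in all 3 libraries, among them the defining genes TRPM5, GFI1B, CHAT and ASCL2. Of the 8, 6 were lower and 2 higher at 5 µM (median -0.56), and 5 were lower and 2 higher at 2.5 µM (median -0.65), beside 45.1% and 43.4% of all tested genes lower. AVIL was over 1 FPKM in DMSO alone and could be called only as lower. The receptor gene KIT was at 24.1 FPKM in DMSO, 6.46 at 2.5 µM and 4.22 at 5 µM (-1.88 and -2.49), and AVIL, an actin regulator of tuft cells, at 1.71, 0.433 and 0.579 FPKM (-1.76 and -1.42). IL17RB, the receptor of the cytokine IL25, had the highest mean of the list, at 42.8, 32.9 and 35.8 FPKM (-0.38 and -0.26). LYN, a SRC-family kinase, was higher at 23.6, 41.1 and 35.1 FPKM (0.80 and 0.57). The summed FPKM of the list was 124.3, 105.3 and 96.1.

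Of 23 B-cell genes, POU2AF1 and POU2F2 included, 5 passed 1 FPKM and 7 were listed at 0 in all libraries, among them the surface marker MS4A1 (CD20). POU2AF1, PAX5, CIITA and BANK1 were lower at both doses and BCL6 higher, with a median of -1.30 at 5 µM and -0.89 at 2.5 µM, beside 45.1% and 43.4% of all tested genes lower. POU2AF1 and BANK1 were over 1 FPKM in DMSO alone and could be called only as lower. In the 5 µM comparison the same held for CIITA, so the median there rests mostly on such genes. PAX5, the transcription factor of B-cell identity, was at 7.93 FPKM in DMSO, 1.58 at 2.5 µM and 1.03 at 5 µM (-2.25 and -2.83), so that it and POU2AF1 had changes of like size. CIITA, the regulator of MHC class II genes, was at 2.13, 1.10 and 0.803 FPKM (-0.89 and -1.30). The transcriptional repressor BCL6 was at 7.62, 13.3 and 10.4 FPKM (0.80 and 0.44). The summed FPKM of the B-cell list was 26.8, 18.4 and 16.8.

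**Figure D5:**
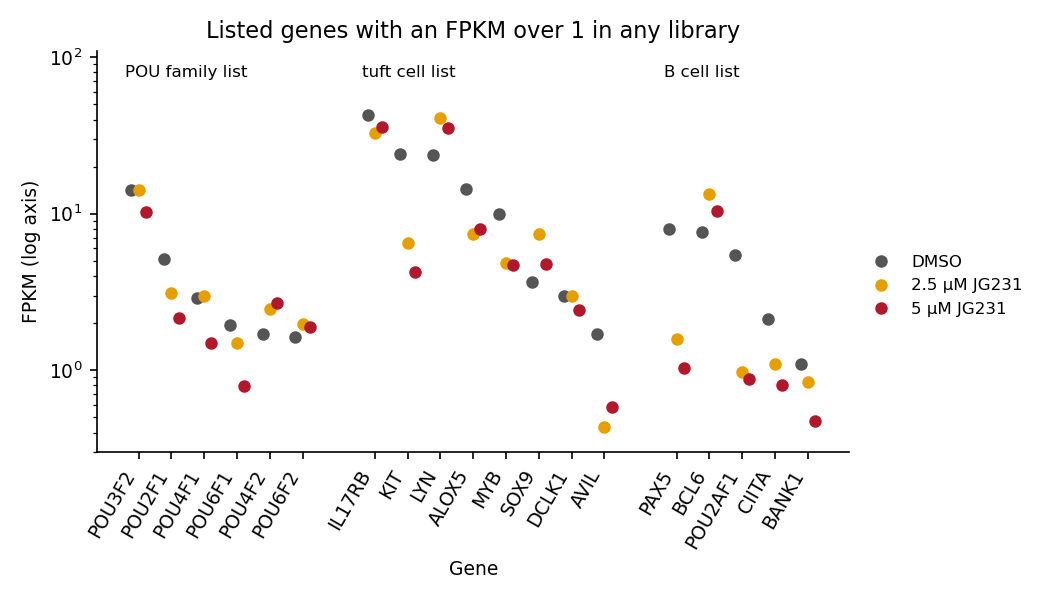
Levels in FPKM (log axis) in the 3 libraries of the POU family, tuft-cell and B-cell genes that passed 1 FPKM in at least 1 library, 1 point per library, ordered by the DMSO level in each list. POU2F1, KIT, PAX5 and POU2AF1 go down with treatment, whereas POU4F2, LYN, SOX9 and BCL6 lie above their DMSO points in both JG231 libraries.

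The genes most like each member were found by the distance between the pairs of log2 changes at the 2 doses. The likeness rests on 3 libraries and 1 shared DMSO value, so it is a description. For COLCA1, among 7582 other genes with a mean of at least 5 FPKM, none lay within 0.25, and the nearest were MT-ND6 at a distance of 0.744, AC091849.2 at 1.040 and GM2A at 1.124. MT-ND6 encodes a subunit of respiratory complex I from the light strand of mitochondrial DNA and was at 3390.0, 230.6 and 274.3 FPKM. AC091849.2, a long noncoding RNA, was at 16.3, 0.993 and 1.56 FPKM, and GM2A, the activator protein of ganglioside breakdown, at 13.2, 1.82 and 1.21 FPKM.

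For the other members the candidates were 13784 genes with a mean of at least 1 FPKM, and neighbours were many. POU2AF1 had 36 genes within 0.25, the nearest being GRIK3, a kainate receptor subunit, at 27.3, 5.10 and 4.69 FPKM, then DLGAP1-AS3 and FAM83H. COLCA2 had 86, led by BPHL, CAPS and ZNF850 at distances of 0.028, 0.029 and 0.037. POU2F1 had 289, led by CEP170B at 15.5, 9.42 and 6.63 FPKM, then USP40 and LTBP3. These counts and that of COLCA1 come from different candidate genes and are not compared, and fewer genes lie near a large change than near a small one.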

How the data were processed

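RNA was sequenced from H660 cells after 24 h in DMSO, 2.5 µM or 5 µM JG231, with 1 library per condition, grouped by their titles. According to the methods, reads were aligned with HISAT and quantified with StringTie in what is also called a Top Hat-Cufflinks pipeline, whereas the submitters' processing notes name HISAT2, featureCounts and GRCh38 (hg38). Versions and the annotation release are not given in the sources used here. The authors deposited FPKM for 58735 genes, which corrects for length and library size but does not scale the libraries to each other. Library input is given differently in the methods and in the labels.

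The members and gene lists were chosen with earlier results of these data known. Changes were log2 of FPKM plus 0.1, after the methods, and genes were tested where at least 1 of the compared libraries was over 1 FPKM and called past 0.25. Identifiers gave a match in GENCODE release 44 for 58207 genes, and 27 symbols turned into dates were handled by identifier. The value of 1 fragment (62.2, 49.1 and 41.6 FPKM bp in DMSO, 2.5 µM and 5 µM) came from steps of FPKM times exon length in single-transcript genes under 50 fragments, where 90.6%, 88.2% and 86.7% of values were within 0.1 of a whole fragment. Member fragments are approximate, since all members have several transcripts and the exon length is that of release 44. FPKM values are not counts, and no count model was applied. Genes named in the text were the members, up to 4 genes per list by mean FPKM and up to 4 by change at 5 µM, the protein-coding genes within 500 kb of COLCA1, and the 3 genes nearest in pattern to each member with a mean of at least 1 FPKM. Other genes, such as markers listed at or near 0, KLK3 among them, and H2B genes with few fragments, were named after their values were seen. Scripts were tested on simulated data. Alternatives changed the pseudocount, filter, threshold, scaling, length trend and treatment of repeated symbols. Tables were handled with pandas 2.3.3 and numpy 2.4.6 in Python 3.11.15, intervals came from scipy 1.17.1, the length trend from lowess in statsmodels 0.14.6 and plots from matplotlib 3.10.9.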

Additional observations from a re-analysis of the deposited data

How the results depend on the processing

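No paired analysis was possible because each condition had 1 library, and for the same reason no library could be left out. Over the pseudocounts (0.01 and 1), filters, scalings, length correction and summed symbols, the 6 members gave 86 alternative log2 changes, of which 13 differed from the reported value by more than the wider side of its counting interval and 86 were below 0. The pseudocount cannot turn a sign, and the filters and summed symbols leave a member's value as it was, so the sign was open to change under the scalings and the length correction alone. With a pseudocount of 1 POU2AF1 was at -1.78 at 5 µM and -1.71 at 2.5 µM. COLCA1 ranged from -4.63 to -4.0 at 5 µM and from -3.76 to -3.34 at 2.5 µM, and POU2F2, the member with fewest fragments, from -3.97 to -0.56 at 5 µM and from -4.63 to -0.58 at 2.5 µM. None of the POU2F2 values was counted among the 13, because its counting interval was wide, so that count is no measure of stability. Rescaling without mitochondrial and small RNA genes shifted the median gene by -0.37 at 5 µM and -0.28 at 2.5 µM.

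With a threshold of 1 the count of lower members was 2 at 2.5 µM, and with a mean of at least 5 FPKM it was 1 at each dose, since COLCA1 alone passes that filter. With the threshold of 1, 2310 genes were higher and 3826 lower at 5 µM, and 2039 and 3416 at 2.5 µM. With a mean of at least 5 FPKM, 3700 were higher and 2076 lower at 5 µM, and 3639 and 1978 at 2.5 µM. Without a filter 12191 were lower at 5 µM and 11680 at 2.5 µM, and after rescaling 3708 were higher at 5 µM. Depth limits POU2F2, POU2F3 and C11orf53, which had 74 fragments or fewer in every library.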
